A study of Rattus norvegicus with 15 samples.

Results

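Fabp3, Fabp5 and Fabp7 encode the fatty acid binding proteins known from the rodent brain. The 3 genes were chosen by symbol, with earlier results for the hippocampus in view, and each matched 1 of the 18278 RefSeq transcript records counted in the series. Counts came from 15 rat RNA-seq libraries of a study that compared stimulation of the vagus nerve, which links the viscera to the brainstem, with sham treatment. Stimulated rats (VNS) were treated through an implanted device for 30 min daily over 4 days, while the matched control animals were given a sham implant. Brains were taken directly after the last session. From the hippocampus came 4 VNS and 3 control libraries, made from ribosome-depleted total RNA of rats that also spent 10 min in a test of novelty preference on days 2 to 4. From the cortex came 4 VNS and 4 control libraries of polyA-selected RNA. Strain, sex and age of the animals are not given in the labels, and nothing in them says which libraries shared an animal, a litter or a day, so p-values measure only the spread between these libraries.

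Fatty acid binding proteins are small cytosolic proteins that hold long-chain fatty acids and related lipids in a barrel-shaped cavity and carry them between membranes, enzymes and nuclear receptors. In the rodent brain Fabp7, also called brain lipid-binding protein, is known from radial glia, astrocytes and neural progenitors and prefers the omega-3 fatty acid docosahexaenoic acid. Fabp5, the epidermal type, is found in neurons and glia, delivers lipids to the receptor PPAR-delta and carries endocannabinoids to the enzymes that break them down. Fabp3, the heart type, is known from adult neurons, where it binds arachidonic acid.

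The records are short and similar in build. Per the count files (genome build rn5), Fabp3 (NM_024162) lies on the plus strand of chromosome 5 from 152246265 to 152252993, with 4 exons and 651 bases. Fabp5 (NM_145878) lies on the minus strand of chromosome 2 from 113735159 to 113738816, with 4 exons and 658 bases. Fabp7 (NM_030832) lies on the plus strand of chromosome 20 from 42501163 to 42504695, with 4 exons and 602 bases. The last 79 bases of Fabp3 (152252915 to 152252993, 12.1% of its exonic length) are shared with Zcchc17, a gene on the opposite strand, whereas Fabp5 and Fabp7 overlapped 0 opposite-strand records. Hippocampal counts carry no strand, so reads from the shared stretch cannot be told apart. Reads shared by several records were assigned to none, so such reads may be missing from both counts. RefSeq lists 2 rat pseudogenes of Fabp5 and 0 of Fabp3 or Fabp7, so the Fabp5 count may be split with near-identical copies and is uncertain to that extent.

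The promoters are shown as background on the genes. The RefSeq table of promoters (assembly GRCr8) matched 2 of the 3 genes, Fabp3 and Fabp7, so the promoters of Fabp5 and Fabp7 cannot be compared. The 250 bases before the start are printed for Fabp3 (chr5:147935875-147936124, plus strand, 65.6% G or C) and Fabp7 (chr20:37669356-37669605, plus strand, 51.6% G or C). Capitals mark matches, on either strand, to the short motifs named below.
Fabp3: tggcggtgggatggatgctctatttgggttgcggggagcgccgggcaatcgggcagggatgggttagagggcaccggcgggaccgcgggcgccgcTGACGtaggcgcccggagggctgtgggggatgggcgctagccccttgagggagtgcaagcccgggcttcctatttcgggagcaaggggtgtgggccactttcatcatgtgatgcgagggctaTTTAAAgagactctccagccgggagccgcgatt
Fabp7: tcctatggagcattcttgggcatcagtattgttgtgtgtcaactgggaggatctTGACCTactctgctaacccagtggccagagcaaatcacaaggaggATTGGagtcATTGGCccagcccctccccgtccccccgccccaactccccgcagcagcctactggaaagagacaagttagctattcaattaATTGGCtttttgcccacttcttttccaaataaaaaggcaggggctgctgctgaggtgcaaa

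The Fabp7 window lies inside the gene span that RefSeq lists. It held 2 matches to the NFI half-site TTGGC, at 141 and 60 bases before the start, a motif present in 40.3% of 33469 rat promoter windows of the same length. It also held 3 matches to CCAAT on the reverse strand (34% of windows), 2 of them overlapping the NFI matches. The last match was to the nuclear receptor half-site AGGTCA, on the reverse strand, 196 bases before the start (14.1% of windows). The Fabp3 window held a cyclic AMP response half-site, TGACG, 155 bases before the start (18.2% of windows), and the TATA-like TTTAAA 33 bases before it (12.3% of windows). Neither window held TGGGAA (22.1% of windows), ATGCAAAT (1.56%) or TATAAA (12.9%). All motifs were searched on both strands, and a match describes letters only.

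The libraries differed in ways that touch the hippocampal values. Totals were 16728486 to 51463555 counts in VNS and 34649991 to 39773553 counts in control hippocampus, and 350787 to 402013 counts in VNS and 329130 to 435296 counts in control cortex. Ribosomal RNA records took 9.34% to 73.1% of counts in VNS and 7.11% to 19.3% in control hippocampus, with the highest share in VNS library 3. Summed markers of forebrain excitatory neurons were at 2936 to 4638 CPM (counts scaled to a common library size) in the VNS libraries, against 599, 151 and 3518 CPM in control libraries 1, 2 and 3. Control libraries 1 and 2 therefore stand apart from the hippocampal label on these markers, so results below are also given without them.

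In the hippocampus, Fabp5 and Fabp7 were each at over 2 times their control mean in VNS rats, and Fabp3 was not. Because the genes were chosen on this contrast, its values are a description with no test. Library sizes behind the CPM were scaled with TMM factors. In bulk tissue fewer cells of a type and less RNA per cell cannot be told apart.

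Fabp7 had 25.0, 14.3, 45.3 and 30.0 CPM in VNS libraries 1 to 4, against 13.8, 11.8 and 12.1 CPM in control libraries 1 to 3. With this scaling all 4 VNS libraries lay above all 3 controls, VNS library 3 was highest, and VNS library 2 lay just above control library 1. Scaled by library totals alone, Fabp7 had 32.8, 14.7, 13.3 and 30.0 CPM in VNS libraries 1 to 4, against 19.6, 17.3 and 14.7 CPM in control libraries 1 to 3. The groups then overlapped, and VNS library 3, with a TMM factor of 0.29, was the lowest of the 7. Library totals include ribosomal RNA records. These took 9.34%, 31.6%, 73.1% and 31.3% of counts in VNS libraries 1 to 4, against 7.11% to 19.3% in controls. The means were 28.7 ± 12.9 CPM in VNS (SD, n = 4) and 12.6 ± 1.09 CPM in controls (SD, n = 3), a ratio of 2.28 and a fitted log2 fold change of 1.18. The spread lay in the VNS group, while the controls were nearly level. These values rest on 1686, 295, 223 and 1212 counts in VNS and 678, 650 and 584 counts in controls. The 95% Poisson intervals, which cover counting error only, were 12.7 to 16.1 CPM in VNS library 2 and 12.8 to 14.9 CPM in control library 1, so these 2 libraries were not separable at this depth. Without VNS library 3 the log2 fold change of Fabp7 was 0.88.

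Fabp5 had 17.0, 14.1, 23.6 and 16.8 CPM in VNS libraries 1 to 4, against 6.21, 8.17 and 10.4 CPM in control libraries 1 to 3. With this scaling the groups did not overlap, VNS library 3 was again the highest and control library 1 the lowest. By library totals alone, Fabp5 had 22.3, 14.5, 6.93 and 16.8 CPM in VNS libraries 1 to 4, against 8.80, 12.0 and 12.6 CPM in control libraries 1 to 3. VNS library 3 then lay below every control and the other VNS libraries above them. The means were 17.9 ± 4.04 CPM in VNS (SD, n = 4) and 8.27 ± 2.10 CPM in controls (SD, n = 3), a ratio of 2.16 and a fitted log2 fold change of 1.10. The counts behind these values were 1146, 290, 116 and 678 in VNS and 305, 451 and 503 in controls. The nearest pair, VNS library 2 and control library 3, had 95% Poisson intervals of 12.5 to 15.8 and 9.53 to 11.4 CPM, which do not meet.

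Fabp3 had 8.39, 6.70, 9.96 and 6.54 CPM in VNS libraries 1 to 4, against 14.3, 5.85 and 7.41 CPM in control libraries 1 to 3. The groups overlapped, and control library 1 held both the highest value and the most counts, 703. The means were 7.90 ± 1.61 CPM in VNS (SD, n = 4) and 9.19 ± 4.50 CPM in controls (SD, n = 3), with a fitted log2 fold change of -0.24. Without control library 1 the sign turned, to a log2 fold change of 0.23.

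**Figure D1:**
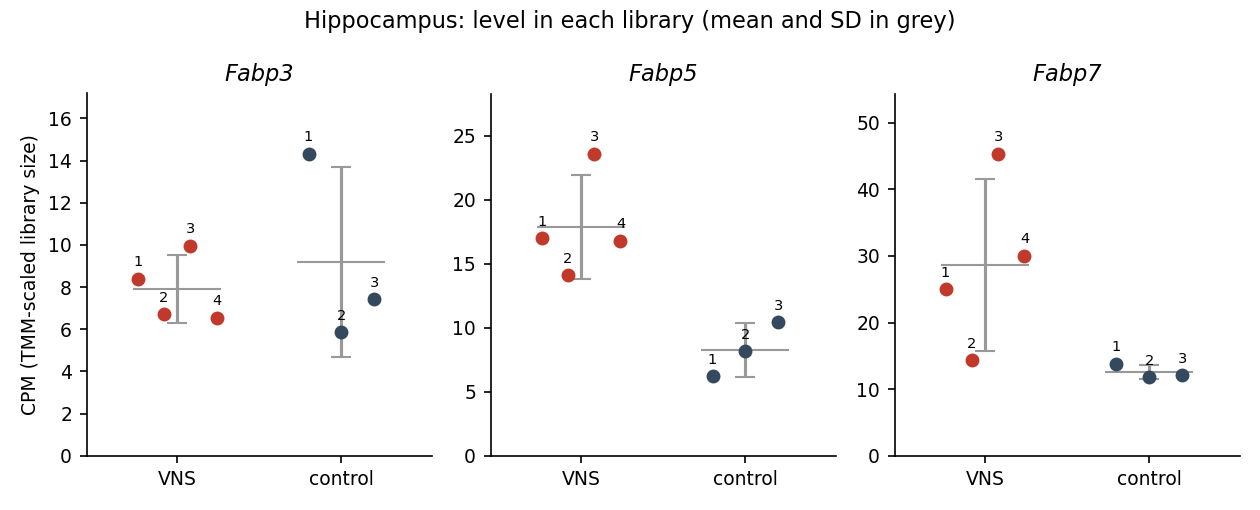
Level of Fabp3, Fabp5 and Fabp7 in each hippocampal library (CPM, linear axis from 0), VNS left and control right, with library numbers, and the mean and SD in grey. With TMM scaling all 4 VNS points of Fabp5 and Fabp7 lie above all 3 controls, which library totals alone do not give, whereas for Fabp3 control library 1, at 14.3 CPM, lies above every VNS point.

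For 2 of the 3 genes, all VNS libraries lay above all controls with TMM scaling, which held for 4.67% of the 12728 records tested in the hippocampus. By library totals alone it held for 0 of the 3 and for 0.0471% of the records. Of those records, 3.28% had a higher log2 fold change than Fabp5, 2.73% a higher one than Fabp7, and 73.1% a higher one than Fabp3. The edgeR quasi-likelihood test called 0 of the 12728 records at an adjusted p under 0.05 (0%), with 1537 at an unadjusted p under 0.05 (12.1%). DESeq2 called 17 and limma-voom 0. The choice of genes used this contrast, so these shares place the 3 genes without supporting them.

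The controls gave different weights to Fabp5 and Fabp7. The mean of the VNS libraries, on the log2 scale, exceeded control libraries 1, 2 and 3 by 1.49, 1.10 and 0.75 for Fabp5 and by 0.93, 1.16 and 1.12 for Fabp7. For Fabp3 the same differences were -0.88, 0.41 and 0.07. Fabp5 was thus nearest to the VNS libraries in control library 3, the control with forebrain marker levels like those of the VNS libraries, while Fabp7 differed from all 3 controls by a similar amount. Without control libraries 1 and 2, and with control library 3 as the lone control assumed to vary like the VNS group, the log2 fold changes were 0.06 for Fabp3, 0.75 for Fabp5 and 1.20 for Fabp7.

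Scaling moved all 3 values in the same direction. With library totals alone, the median of all records lay at a log2 fold change of -0.59, against -0.007 with TMM. On that scale Fabp3, Fabp5 and Fabp7 stood at -0.88, 0.44 and 0.40, which is -0.29, 1.03 and 0.99 relative to that median. When ribosomal and 7SL RNA records were left out, the log2 fold changes were -0.24, 1.09 and 1.17. Records of similar length had a median log2 fold change of 0.06, over 538 records of over 500 and up to 800 bases. Relative to them the 3 genes stood at -0.30, 1.04 and 1.11, and 13 of the 538 had a higher value than Fabp5 and 10 a higher one than Fabp7.

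**Figure D2:**
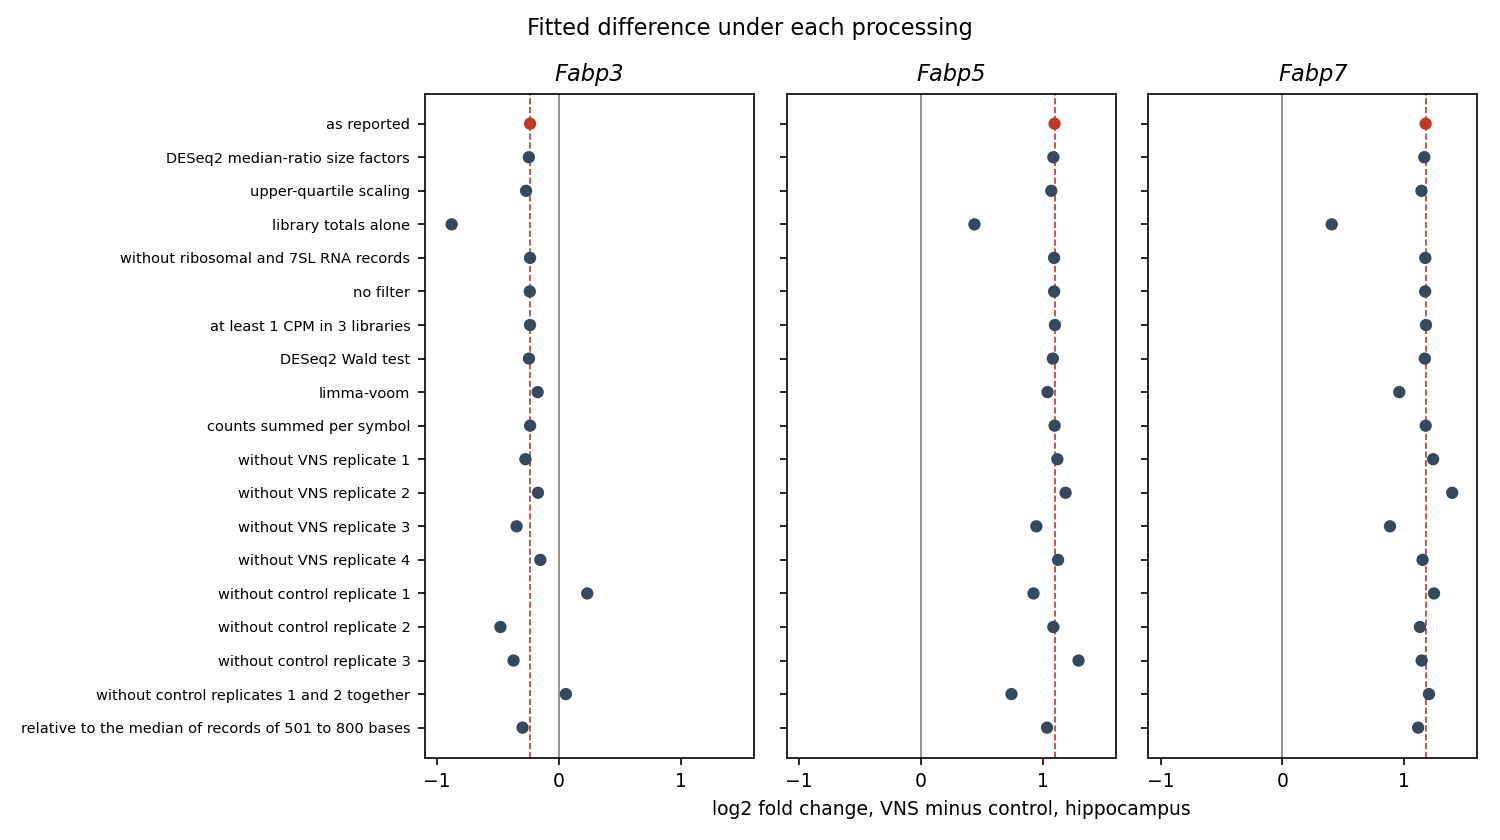
Fitted log2 fold change (VNS minus control, hippocampus) of Fabp3, Fabp5 and Fabp7 as reported (red point and dashed line) and under each alternative processing (dark points), with the grey line at 0. Fabp5 and Fabp7 stay above 0 under every alternative drawn, lowest with library totals alone at 0.44 and 0.40, while Fabp3 lies on either side of 0.

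Per length, Fabp7 was the most abundant of the 3 in every VNS library and every control library. Levels per kilobase (RPKM) averaged 47.6 ± 21.4 in VNS and 20.9 ± 1.81 in controls for Fabp7, and 27.1 ± 6.14 in VNS and 12.6 ± 3.20 in controls for Fabp5 (SD, n = 4 and 3). For Fabp3 the RPKM averaged 12.1 ± 2.47 in VNS and 14.1 ± 6.92 in controls. Fabp5 was the higher of the other pair in all 4 VNS libraries and in control libraries 2 and 3, and Fabp3 in control library 1. The summed level of the 3 genes was 86.9 ± 29.4 RPKM in VNS (n = 4) and 47.5 ± 6.70 RPKM in controls (n = 3). Within that sum Fabp3 made up 11.8% to 18.6% in VNS and 21.9% to 40.5% in controls. Shares of a sum depend on each other and the genes were chosen on this contrast, while the Fabp3 level itself overlapped between groups. The Fabp7 share was 42.9% to 59.6% in VNS and 42.2% to 47.7% in controls, and the Fabp5 share 28.3% to 38.6% in VNS and 17.4% to 33.5% in controls.

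Ratios within a library do not depend on its scaling. The ratio of Fabp5 to Fabp3 per length was 2.00 to 2.54 in VNS libraries, against 0.43, 1.38 and 1.39 in control libraries 1 to 3. The genes were chosen on this contrast and no share over other gene pairs was taken, so these ratios are a description only. The ratio of Fabp7 to Fabp5 was 1.69 ± 0.44 in VNS (SD, n = 4) and 1.76 ± 0.60 in controls (SD, n = 3), a difference smaller than the spread in either group. Over the 7 hippocampal libraries, log2 CPM centred on each gene's mean differed by a root mean square of 0.37 between Fabp5 and Fabp7, and 463 of the 12728 tested records lay nearer to Fabp5 than Fabp7 did. The same distance was 0.81 between Fabp3 and Fabp5 and 0.75 between Fabp3 and Fabp7. All libraries enter these distances, and the group difference, depth and tissue makeup are shared by all genes in them.

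The records most like each gene by this distance were named by a fixed rule of the 5 nearest with a symbol. Nearest to Fabp3 were Mob3b (0.09), the lysine methyltransferase gene Setd7 (0.12), the calcium-independent phospholipase gene Pla2g6 (0.13), the GABA-B receptor subunit gene Gabbr2 (0.17) and the small GTPase gene Gem (0.17). All 5 were highest in control library 1, as Fabp3 was. Nearest to Fabp5 were Basp1, which encodes a membrane protein of growth cones (0.12), the focal adhesion gene Tgfb1i1 (0.17), and Rnasek, Rhebl1 and the DNA repair gene Xrcc4 (0.19 each). Basp1 had 218.6, 162.1, 268.1 and 186.4 CPM in VNS libraries 1 to 4, against 64.0, 104.5 and 132.9 CPM in control libraries 1 to 3, the same order of libraries as Fabp5. Nearest to Fabp7 were the myosin light chain gene Myl12b (0.18), Akap14 (0.19), the ATP synthase inhibitor gene Atp5if1 (0.23), Lxn (0.23) and the ribosomal protein gene Rpl13 (0.24). Myl12b had 53.5, 31.1, 112.0 and 50.7 CPM in VNS libraries 1 to 4, against 31.9, 28.1 and 30.3 CPM in control libraries 1 to 3, highest like Fabp7 in VNS library 3.

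Cell type markers were set beside the 3 genes because Fabp7 is an astrocyte and progenitor gene. The summed level of 10 astrocyte markers was 3141 to 3652 CPM in VNS and 3035 to 3310 CPM in controls, and 3 of 8 tested markers had higher values in VNS and 5 lower, so the sum hides differences that cancel. Among them Gfap, the astrocyte filament gene, had a log2 fold change of 0.63 and the astrocyte aldolase gene Aldoc one of -0.63, neither of which passed the test. Both genes overlapped between groups, and Gfap was highest in VNS library 1, at 1996 CPM, with 882, 755 and 1070 CPM in VNS libraries 2 to 4. Aqp4 and Slc1a3 were at 0 in all 7 libraries, in genes with 5 and 4 transcript records, where reads shared by several records were assigned to none. Markers of neural progenitors and immature neurons summed to 93.6 to 116 CPM in VNS and 44.4 to 98.5 CPM in controls, with 6 of 7 tested markers higher in VNS. Their lead members were Dcx (log2 fold change 0.29) and Sox4 (0.21), and control library 1, the lowest on this list, was the lowest control for Fabp5 and the highest for Fabp7.

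All 8 oligodendrocyte markers had lower values in VNS, among them Cnp (log2 fold change -0.71), with sums of 2021 to 4759 CPM in VNS and 4163 to 7591 CPM in controls. All 8 brain endothelial markers, a cell type in which Fabp5 is also known, had lower values too, among them Slc2a1 and Cldn5 (-0.25 each), with sums of 271 to 405 CPM in VNS and 335 to 451 CPM in controls. All 7 tested forebrain excitatory markers had higher values in VNS, among them Camk2a (1.32) and Slc17a7 (1.37). So did all 3 dentate granule cell markers, among them Prox1 (0.84) and Calb1 (0.61), at 135 to 297 CPM in VNS and 59.2 to 183 CPM in controls. Markers of thalamic and other neurons outside the telencephalon summed to 17.9 to 115 CPM in VNS and 49.5 to 1207 CPM in controls, led by Slc17a6 (-2.86) and Prkcd (-4.12). Microglial markers were at 184 to 219 CPM in VNS and 182 to 240 CPM in controls, led by Csf1r (-0.07) and C1qa (0.02). The part of these differences in the values of the 3 genes was not tested.

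**Figure D3:**
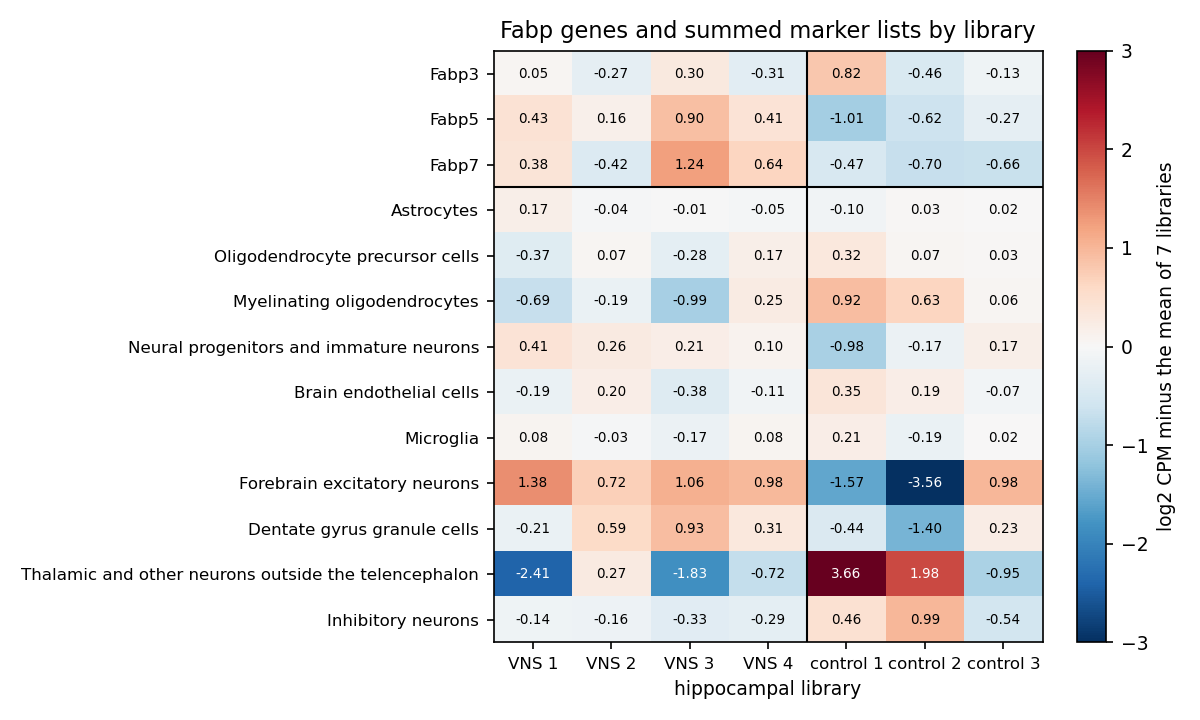
Level of Fabp3, Fabp5 and Fabp7 (top) and the summed level of 10 marker lists in each hippocampal library, VNS left of control, as log2 CPM minus the mean of the 7 libraries (colours end at -3 and 3). Control libraries 1 and 2 are low for forebrain excitatory and high for thalamic markers, and the astrocyte sum, over markers that differ in both directions, stays within -0.10 and 0.17.

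The rest of the gene family was near the limit of detection in the hippocampus. Of 7 other fatty acid binding protein genes, only the myelin gene Pmp2 passed the filter on low counts, at 0.34 CPM in VNS and 0.30 CPM in controls (fitted log2 fold change -0.24, SE 0.79, of the opposite sign to the difference of the means). The liver gene Fabp1, the ileal gene Fabp6, the testis gene Fabp9 and Fabp12 had 1, 2, 0 and 2 counts over all 7 libraries, and the intestinal gene Fabp2 had 15. Fabp4, the adipocyte type, had 3, 0, 2 and 20 counts in VNS libraries 1 to 4 and 0 in all 3 controls, where 3 counts would be 0.054 to 0.062 CPM. The adipocyte genes Adipoq and Plin1 together reached at most 0.097 CPM in a VNS library and 0.12 CPM in a control library. Fabp3, Fabp5 and Fabp7 thus held nearly all counts of the family in these libraries.

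Genes that supply, use or respond to fatty acids were compared in 8 lists of 110 symbols, 96 of which were tested in the hippocampus. None passed (0 of 96, edgeR quasi-likelihood test, background 0%), nor did any with DESeq2 or limma-voom. At an unadjusted p under 0.05 there were 16 of 96 (16.7%), 4 higher and 12 lower in VNS, against 12.1% of all records. The median log2 fold change of the 96 was -0.16, against -0.007 over all records. Over all records, 49.2% had a higher fitted value in VNS. Of the 8 list medians, 5 lay at -0.18 or below, and that of the endocannabinoid genes, -0.005, was about that of all records. The named genes below had adjusted p of 0.40 or more. Most were picked for the smallest p in their list, so a lack of overlap between groups among them is no support.

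Of the genes for fatty acid uptake and activation, 12 of 15 had lower fitted values in VNS, with a median log2 fold change of -0.30. The fatty acid transporter genes Slc27a6 and Slc27a2 stood at -1.12 (SE 0.40) and -2.04 (SE 0.85), whereas Acsl5, an acyl-CoA synthetase gene, stood at 0.63 (SE 0.25). Slc27a2 was at 0.30 to 2.70 CPM in VNS, against 2.53, 13.8 and 2.09 CPM in control libraries 1 to 3, with control library 2 far above the rest. Of 18 genes for beta-oxidation, the breakdown of fatty acids in mitochondria and peroxisomes, 16 had lower fitted values, with a median of -0.25. Hadhb, a subunit of the trifunctional protein, was at 70.5 ± 5.23 CPM in VNS (n = 4) and 91.7 ± 6.82 CPM in controls (SD, n = 3), without overlap (log2 fold change -0.38, SE 0.12), where 9.28% of the tested records had none. The carnitine carrier gene Slc25a20 (-0.35, SE 0.13) and the dehydrogenase gene Acadm (-0.39, SE 0.16) also had no overlap between groups.

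Of 16 genes for fatty acid synthesis, elongation and desaturation, 10 had lower fitted values, with a median of -0.18. The stearoyl-CoA desaturase gene Scd2 was at 3349 ± 241 CPM in VNS (SD, n = 4), against 4905, 5255 and 3967 CPM in control libraries 1 to 3 (log2 fold change -0.49, SE 0.21). The elongase genes Elovl6 and Elovl5 stood at -0.33 (SE 0.14) and -0.32 (SE 0.14). Scd2 and the elongases serve membrane and myelin lipid synthesis, and the oligodendrocyte markers had lower values in the same libraries, as given above. Whether the values of Scd2 and the elongases are linked to those markers was not tested.

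Lipid and retinoid nuclear receptor genes, with the coactivator gene Ppargc1a, had a median log2 fold change of -0.24 over 11 tested genes, 8 of them lower. Nr1h3, which encodes the oxysterol receptor LXR-alpha, stood at -0.87 (SE 0.31), the retinoic acid receptor gene Rarb at -0.89 (SE 0.38) and Ppara at 0.38 (SE 0.19). Ppard, the receptor gene linked to Fabp5, did not pass (adjusted p = 0.43). Of 10 tested PPAR target genes, 7 had lower fitted values. Ucp2, a mitochondrial carrier gene, had 22.1 to 46.3 CPM in VNS, against 15.8, 11.8 and 19.4 CPM in control libraries 1 to 3, without overlap (log2 fold change 0.95, SE 0.29, adjusted p = 0.40).

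Endocannabinoid genes, which bear on the carriers Fabp5 and Fabp7, were evenly divided, with 5 of 11 higher and a median of -0.005. The cannabinoid receptor gene Cnr1 was at 231 to 383 CPM in VNS, against 48.8, 124.7 and 253.5 CPM in control libraries 1 to 3 (log2 fold change 1.05, SE 0.48). Control library 3 thus lay inside the VNS range. The hydrolase genes Abhd6 and Abhd4 stood at 0.50 (SE 0.20) and -0.32 (SE 0.17).

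Genes known to act on the Fabp7 promoter or in radial glia had a median of 0.16, with 9 of 13 tested members higher. The nuclear factor genes Nfib and Nfia, whose proteins bind the half-site shown above, stood at 1.20 (SE 0.43) and 0.46 (SE 0.22). Nfib had 93.1 to 143 CPM in VNS, against 30.4, 29.9 and 94.6 CPM in control libraries 1 to 3, so control library 3 lay inside the VNS range. A link between Nfib or Nfia and the Fabp7 level was not tested. The POU factor gene Pou3f2 stood on the other side of 0, at 12.0 to 16.9 CPM in VNS, against 21.3, 50.8 and 24.5 CPM in control libraries 1 to 3 (log2 fold change -1.06, SE 0.30). Among the other lipid-binding proteins, the retinoid carrier genes Crabp1 and Crabp2 stood at 0.37 (SE 0.67) and -0.25 (SE 0.64).

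**Figure D4:**
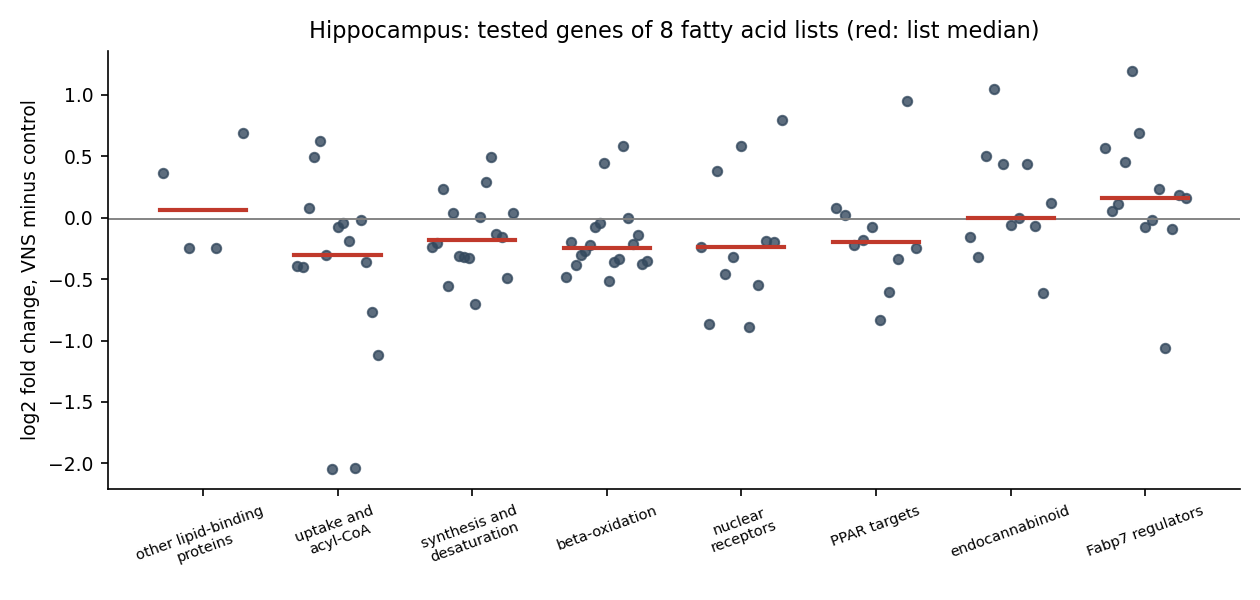
Fitted log2 fold change (VNS minus control, hippocampus) of each tested gene in 8 lists of fatty acid genes, 1 point a gene. The red bar is the list median and the grey line the median of all tested records, -0.007. The medians lie between -0.30 and 0.16, and no point passed the test.

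These lists depended on the controls. Without control library 3, 9 list genes passed, with Acsl4, Acsl5, Cnr1, Cpt1c, Mgll, Nfib, Nfix and Rara higher and Pou3f2 lower in VNS (edgeR, adjusted p from 0.0026 to 0.0496). That is 9.38% of the 96, against 10.6% of all 12931 records tested without that library. Without control libraries 1 and 2, none passed, and the medians were -0.09 for uptake, -0.08 for beta-oxidation, -0.006 for synthesis and -0.02 for the Fabp7 regulators.

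In the cortex the 3 genes were tested where counts allowed, since their choice did not use those libraries. Far fewer counts were assigned per library than in the hippocampus. Cortex reads, from a kit that marks strand, were counted with strand option 1 per the file header. Whether fewer reads were sequenced or fewer were assigned to records cannot be told from the counts. Records that overlap an opposite-strand record made up 3.79% of records but held 35.5% of cortex counts, against 9.58% of hippocampal counts. Cortex values and tests below therefore describe records as counted and do not measure gene levels. The excitatory neuron genes Slc17a7 and Camk2a had only 33 to 82 and 53 to 87 counts per cortex library, and Gfap 34 to 132. The astrocyte marker Aldh1l1 had 0 to 2, whereas Sox4, a marker of immature neurons, had 344 to 565.

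Fabp3 had 105, 107, 146 and 141 counts in VNS cortex libraries 1 to 4, against 83, 156, 86 and 95 in control libraries 1 to 4. Scaled, this was 356 ± 39.7 CPM in VNS and 298 ± 47.0 CPM in controls (SD, n = 4 each), and control library 2 lay within the VNS range. The difference did not pass the test (log2 fold change 0.25, SE 0.20, 95% interval -0.17 to 0.68, adjusted p = 0.99975, edgeR quasi-likelihood test). Zcchc17, the overlapping gene on the other strand, had a log2 fold change of 0.21 (SE 0.19). Fabp3 stood at 327 ± 50.9 CPM over 8 cortex libraries and 8.45 ± 2.92 CPM over 7 hippocampal libraries, and Zcchc17 at 549 ± 86.0 and 31.9 ± 4.00 CPM (SD), values scaled separately by tissue and counted differently.

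Fabp5 had 1, 14, 16 and 2 counts in VNS cortex libraries 1 to 4, against 10, 24, 4 and 12 in control libraries 1 to 4. The groups overlapped widely, at 23.3 ± 22.0 CPM in VNS and 34.3 ± 18.0 CPM in controls (SD, n = 4 each). The log2 fold change was -0.56 (SE 0.65, 95% interval -1.92 to 0.79, adjusted p = 0.99975, edgeR quasi-likelihood test). The tissues differ in RNA selection and strand counting, and the difference of the VNS effect between them was not tested.

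Fabp7 had 4, 1, 7 and 3 counts in VNS cortex libraries 1 to 4, against 0, 8, 2 and 9 in control libraries 1 to 4. The means were 10.6 ± 6.71 CPM in VNS and 12.9 ± 11.9 CPM in controls (SD, n = 4 each), a log2 ratio of -0.28. With 34 counts in all Fabp7 did not pass the filter on low counts, and a difference was not detectable with so few counts. The 0 counts of control library 1 allow up to 9.83 CPM. Of the 2 genes tested, 0 passed, where 1 of 3884 cortex records did (0.0257%). The groups overlapped for all 3 genes, where 2.29% of the tested cortex records had no overlap. Fabp2 had 4, 3, 6 and 11 counts in VNS and 1, 0, 0 and 2 in control cortex, and was not tested either.

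**Figure D5:**
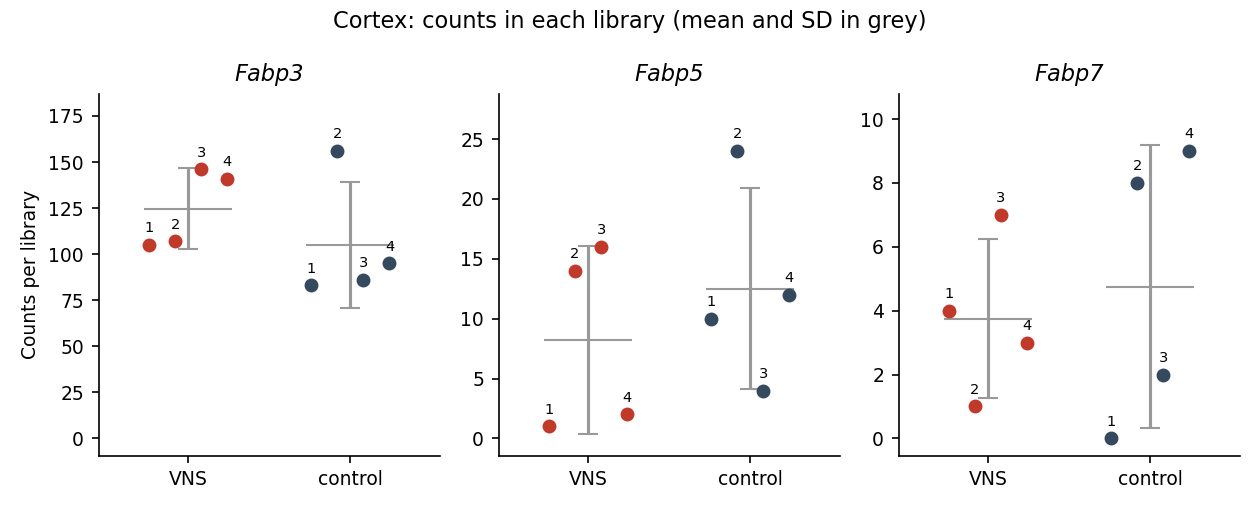
Counts of Fabp3, Fabp5 and Fabp7 in each cortex library, VNS left and control right, with library numbers, and the mean and SD in grey. The groups overlap for all 3 genes, and Fabp7 stays at 9 counts or fewer in every library.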

How the data were processed

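The authors deposited raw read counts for each RefSeq transcript record, which featureCounts 1.4.6-p2 made, per the file headers. Reads were paired-end, 100 bp, per the labels' protocols. Bowtie2, Trimmomatic, FastQC 0.10.1, SAMtools 0.1.19, Subread, edgeR and build rn5 appear in the submitters' processing notes (alignment options: not given in the sources used here). Per the file headers, strand option 1 was used for cortex and none for hippocampus. Symbols came from a RefSeq table of assembly GRCr8 (17339 of 18278 records), used for names.

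Each tissue was fitted separately with edgeR 4.0.16 (R 4.3.3): filterByExpr (minimum count 10, minimum total 15), TMM scaling, glmQLFit and glmQLFTest, two-sided, Benjamini-Hochberg adjustment, threshold 0.05. The code was tested on simulated data. CPM and RPKM use TMM-scaled library sizes, log2 CPM a prior count of 2, and a symbol with several records is represented by the one with the most hippocampal counts. Genes and lists were chosen with earlier results of these data known. Named were the 3 genes, the other fatty acid binding protein genes, up to 3 genes with the smallest p per list, the 5 records nearest to each gene, and the 2 highest markers and any at 0 of the marker lists described; Ppard was named after its value was seen. Some genes that this rule names are not reported here. Alternatives used DESeq2 1.42.0, limma 3.58.1 (voom), other scalings, filters, counts per symbol and left-out libraries. No 2 libraries were duplicates (smallest chi-square per degree of freedom 24.2 in hippocampus and 3.12 in cortex). Counting intervals and floors cover counting error only.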

Additional observations from a re-analysis of the deposited data

Results flagged for a closer look

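In control cortex, the Fabp3 level of library 2, at 369 CPM, stood far above the other 3 libraries, at 272, 275 and 277 CPM. It was flagged by the gap to the nearest of the other libraries, relative to the range of the group, and chance flags about 1 in 20 such groups. That library also had the most assigned counts of the cortex libraries, 435296, and the most Fabp5 counts of the controls, 24. Without it the log2 fold change of Fabp3 in cortex was 0.38 and still did not pass (edgeR quasi-likelihood test).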

How the results depend on the processing

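Fabp5 and Fabp7 kept a positive hippocampal log2 fold change under all 18 alternatives, from 0.44 to 1.30 and from 0.40 to 1.39, and Fabp3 ranged from -0.88 to 0.23. Library totals alone gave -0.88 for Fabp3, 0.44 for Fabp5 and 0.40 for Fabp7 and called 194 hippocampal records (4 higher, 190 lower), 1 of them in the fatty acid lists, Slc27a2. The median of all records moved by the same scaling. DESeq2 called 17 hippocampal records. Leaving out 1 library gave 0 to 1377 called hippocampal records, the most without control library 3 (807 higher, 570 lower), 0 to 9 list genes, and log2 fold changes of -0.48 to 0.23 for Fabp3, 0.93 to 1.30 for Fabp5 and 0.88 to 1.39 for Fabp7. Without control libraries 1 and 2 Fabp5 stood at 0.75. In cortex, no filter called 5 records, a filter of 1 CPM in 3 libraries 6, limma-voom 0 and leaving out 1 library 0 to 4, and both filters gave Fabp7 a log2 fold change of -0.26 (not passed). Leaving out 1 library gave 0.20 to 0.38 for cortex Fabp3 and -1.04 to -0.19 for cortex Fabp5, neither passing in any of 17 alternatives. The cause of these changes was not tested. No paired analysis was possible because the labels give no replicate numbers and the numbers used follow accession order. For Fabp7 in cortex, the alternatives that keep the filter could not be fitted. Low assigned counts limit cortex most, and VNS library 3 in the hippocampus, with 49 Fabp3 counts. The comparison of protein sequences was not run. Records of over 500 and up to 800 bases as the baseline were added after seeing the data.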
